A study of Mus musculus with 12 samples.

Results

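The 10 genes described here store iron, carry it across membranes, sense it or break down heme. They are Fth1, Ftl1, Slc40a1, Tfrc, Slc11a1, Slc11a2, Hmox1, Lcn2, Aco1 and Ireb2, and they were found by their symbols among the 23361 gene symbols of the expression tables. All 10 were present, with 1 row each, and all 10 had at least 1 FPKM (fragment counts divided by transcript length and by the size of the library) in at least 1 sample. RNA-seq was performed on bone marrow-derived macrophages (BMDMs) of wild-type C57BL/6 mice aged 8 to 12 weeks, grown for 6 days with L929 cell supernatant as the source of M-CSF. The samples formed 4 groups of 3, which gave 12 samples. Control cells received no stimulus, IL-4 cells received 20 ng/ml of IL-4 for 24 h, LPS cells received 100 ng/ml of LPS for 3 h, and IL-4+LPS cells received IL-4 first and LPS after it. IL-4 is the cytokine that polarizes macrophages toward their alternative state, and LPS, a glycolipid of the outer membrane of bacteria, triggers the inflammatory program.

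Macrophages take up old red blood cells, free the iron from heme with heme oxygenase 1 (Hmox1), and either keep it in ferritin (a shell of heavy Fth1 and light Ftl1 chains) or return it to the blood through ferroportin (Slc40a1), the only known iron exporter of mammals. Iron enters from transferrin through the transferrin receptor (Tfrc) and leaves the endosome through Slc11a2 (DMT1), whereas Slc11a1 (NRAMP1) pumps metal out of the phagosome, away from engulfed bacteria. The iron regulatory proteins IRP1 (Aco1) and IRP2 (Ireb2) bind a hairpin called the iron-responsive element (IRE) when iron is scarce, which blocks translation of the ferritin and ferroportin messengers and protects the Tfrc messenger from decay.

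The IREs are shown because they divide the transcripts into those with the hairpin before and those with it after the coding sequence. The capitals mark the loop, CAGTG and the base that follows it. In the GENCODE vM21 transcripts, placed on mm10, Fth1 held 1 in its 5′ UTR at chr19:9982732-9982760 (plus strand), Ftl1 held 1 in its 5′ UTR at chr7:45459779-45459807 (minus strand), and Slc40a1 held 1 in its 5′ UTR at chr1:45925465-45925493 (minus strand). Tfrc held 4 in its 3′ UTR, all on the plus strand of chromosome 16, and the first of these lay at chr16:32631219-32631247 and the last at chr16:32631710-32631738.
Fth1: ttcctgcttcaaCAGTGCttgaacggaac
Ftl1: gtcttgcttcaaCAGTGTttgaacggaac
Slc40a1: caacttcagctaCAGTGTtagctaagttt
Tfrc, element 1: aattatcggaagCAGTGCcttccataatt
Tfrc, element 2: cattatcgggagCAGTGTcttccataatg
Tfrc, element 3: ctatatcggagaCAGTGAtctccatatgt
Tfrc, element 4: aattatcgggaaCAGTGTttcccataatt
The search pattern was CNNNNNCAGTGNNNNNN with 5 paired bases in the upper stem, on the sense strand. Of 21877 genes searched, 271 (1.24%) held it, and 44 (0.201%) also had at least 4 of 6 pairs in the lower stem, as the 7 elements above have. No match was found in the transcripts of the other 6 iron genes searched this way. The pattern allows no unpaired base in the upper stem and no loop other than CAGTG. An element of another form would therefore be missed, in these 6 genes and in Tfrc, so a lack of matches does not show a lack of elements.

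FPKM totals lay between 457583 and 495025 per sample. The absolute depth was unknown, and relative depth, read from the steps of the low values with control replicate 1 set to 1, lay between 0.991 and 3.30. Replicate 1 stood apart in every group: the mean Pearson r across expressed rows was 0.956 to 0.961 for pairs within a group that included it and 0.973 to 0.983 for replicates 2 and 3. Values that turn on replicate 1 are therefore given with and without it. All 7 macrophage markers were detected, with a summed level of 6920 to 21253 FPKM, lower in the IL-4-exposed samples. Most of this sum was Lyz2, with means of 16116 FPKM in control, 4873 with IL-4, 12881 with LPS and 4298 with IL-4+LPS. The other markers also had lower means with IL-4 than in control, but Cd68 and Mertk had higher means with IL-4+LPS than with LPS. The study names Lyz2 among the genes that IL-4 represses. Whether fewer macrophages had a part in the lower sum was not tested. The 3 T cell and the 4 B cell markers in the tables never reached 1 FPKM, and the 7 erythroid markers summed to at most 1.51 FPKM, of which Epor alone reached 1 FPKM in a sample. Dendritic cell markers (2 of 4 at 1 FPKM) summed to 21.6 to 43.3 FPKM without IL-4 and 298 to 366 FPKM with it, mainly through Itgax, which cultured macrophages also express, and stromal markers summed to at most 3.55 FPKM. Fewer cells of a type and less RNA per cell cannot be told apart in such bulk samples.

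LPS lowered 5 of the 10 iron genes and raised 2. Slc40a1, Tfrc, Ftl1, Aco1 and Slc11a1 were lower in the LPS group than in control, Lcn2 and Slc11a2 were higher, and Fth1, Hmox1 and Ireb2 did not pass the test (limma on log2(FPKM + 1), adjusted p under 0.05). This share lies near the background, since 74.6% of the 11191 rows tested passed in this comparison, 57.7% lower and 16.9% higher. The median log2 fold change of all rows was -0.44, and that of the 10 genes was -0.47. This offset depends on the scaling of the samples: the median of all rows was -0.12 after quantile normalization and -0.14 after median scaling, and the split of 1887 higher and 6462 lower rows became 2903 and 4326, or 2966 and 4454. Measured from the median of all rows, Slc40a1 was -3.04, Tfrc -0.43, Ftl1 -0.31, Aco1 -0.12 and Slc11a1 -0.02, whereas Slc11a2 was 1.14 and Lcn2 2.82. With replicates 2 and 3 only, 2 genes were higher and 6 lower, Hmox1 being added to the lower ones. Of all rows, 2178 were higher and 7032 lower in that setting.

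IL-4 raised 2 of the 10 genes, Tfrc and Aco1, and lowered 5, Slc40a1, Lcn2, Slc11a1, Fth1 and Slc11a2. Ftl1, Hmox1 and Ireb2 did not pass. Of all rows, 37% passed in this comparison, 16% higher and 21% lower, with a median log2 fold change of -0.05 against -0.26 for the 10 genes. With replicates 2 and 3 only, Hmox1 was added to the higher genes, which gave 3 higher and 5 lower, where 2406 and 3286 of all 11191 rows were. The lower genes were 3 without control replicate 2, control replicate 3, IL-4 replicate 1 or IL-4 replicate 3, where Lcn2 and Slc11a2 were lost. In these 4 fits, between 1749 and 2093 of all rows were lower, against 2346 with every sample. The plot of changes in the 4 comparisons sets these results side by side.

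**Figure D1:**
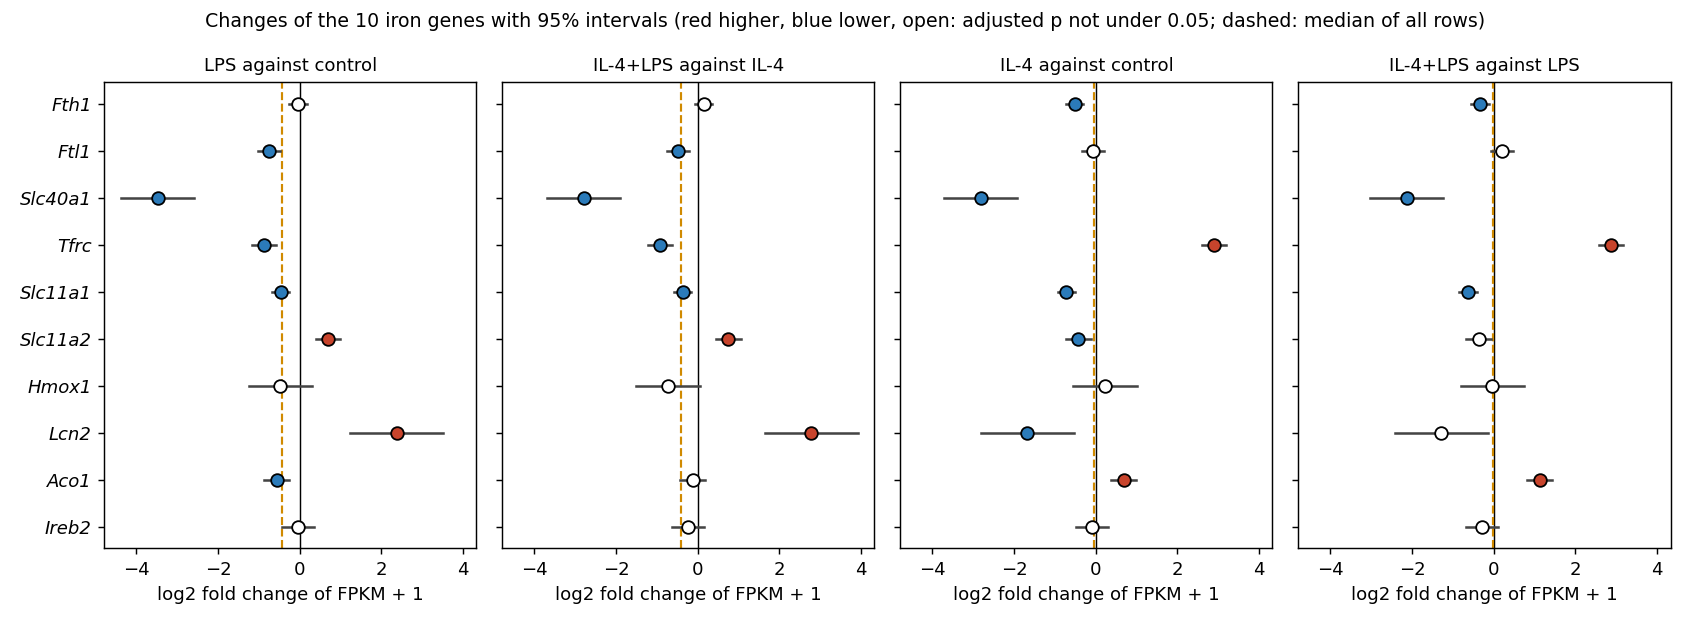
Log2 fold change of FPKM + 1 (x axis) of each iron gene (y axis) in 4 comparisons, with 95% intervals from limma. Red points were higher and blue points lower at an adjusted p under 0.05, open points did not pass, and the dashed line is the median of all 11191 rows. Tfrc lies near 2.9 in both comparisons of IL-4-exposed with unexposed cells, and Slc40a1 lies below -2 in all 4.

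The ferritin chains were the most abundant messengers of the set, and their balance shifted. Fth1 read 20722, 17667 and 16458 FPKM in control replicates 1 to 3 and 18720, 17001 and 17292 FPKM with LPS. It read 13129, 12632 and 12403 FPKM with IL-4 and 15051, 14012 and 13092 FPKM with IL-4+LPS. Every IL-4-exposed sample thus lay below every sample without IL-4, while control and LPS samples overlapped. By its group mean, Fth1 was the highest of the 23847 rows in all 4 groups, and it made up 3.95% of the FPKM total in control and 2.67% with IL-4. The fall with IL-4 was 1.44-fold in mean FPKM (log2 fold change -0.52, SE 0.10, adjusted p = 0.00215), and with LPS in both arms it was 1.26-fold (-0.33, SE 0.10, adjusted p = 0.0254). Both calls were lost under quantile normalization, which gives nearly fixed values to the rows at the top of the ranking, without the expression filter (adjusted p = 1 for both), and with only the compared groups in the fit (adjusted p = 0.0667 and 0.294). The second was also lost on leaving out 1 of 5 libraries, LPS replicate 1 (-0.29), 2 (-0.36) or 3 (-0.35) or IL-4+LPS replicate 2 (-0.33) or 3 (-0.28), with adjusted p between 0.0506 and 0.0993. For LPS against control the log2 fold change of Fth1 was -0.04 (95% interval -0.26 to 0.17), and it was 0.33 (adjusted p = 0.0164) after median scaling. For LPS after IL-4 it was 0.14 (adjusted p = 0.21), and 0.51 (adjusted p = 0.00153) after median scaling.

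Ftl1, the light chain, was lower with LPS and did not pass with IL-4. It read 7201, 9113 and 9102 FPKM in control, 6944, 8898 and 8458 FPKM with IL-4, 4906, 5159 and 4944 FPKM with LPS and 5291, 6283 and 5704 FPKM with IL-4+LPS. Every LPS-exposed sample was below every sample without LPS. The fall was 1.69-fold without IL-4 (-0.75, SE 0.12, adjusted p = 0.000211) and 1.41-fold after IL-4 (-0.49, SE 0.12, adjusted p = 0.0041). Under quantile normalization, which holds rows this high in the ranking nearly fixed, the first was -0.20 (adjusted p = 0.123). The second was 0.01 there (adjusted p = 0.961). After median scaling the first still passed (-0.38, adjusted p = 0.0156) and the second did not (-0.12, adjusted p = 0.397). The second call was thus lost under both scalings and the first under quantile normalization alone. Without the expression filter neither passed (adjusted p = 0.271 and 0.572). For IL-4 against control the value was -0.06 (95% interval -0.33 to 0.20). Within a sample the ratio of Fth1 to Ftl1 does not depend on scaling. It was 2.21 ± 0.58 in control, 1.59 ± 0.26 with IL-4, 3.54 ± 0.26 with LPS and 2.46 ± 0.34 with IL-4+LPS (mean ± SD, n = 3), and the 3 LPS samples, at 3.30 to 3.82, lay above all others. The level of Ftl1 is uncertain, since 90.6% of the 50-base words of its transcript also occur in other genes, most of them in Ftl1-ps1, which GENCODE lists as protein-coding, against 4.01% for Fth1.

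Ferroportin fell with either stimulus and was lowest with both. Slc40a1 read 155, 127 and 131 FPKM in control replicates 1 to 3. It read 20.5, 18.4 and 16.8 FPKM with IL-4, 21.8, 8.30 and 7.90 FPKM with LPS, and 4.28, 1.10 and 1.03 FPKM with IL-4+LPS. Control lay above and IL-4+LPS below all other samples, and the IL-4 and LPS samples overlapped because of LPS replicate 1. In mean FPKM the fall was 10.9-fold with LPS (-3.48, SE 0.40, adjusted p = 1.86e-05), 7.41-fold with IL-4 (-2.82, SE 0.40, adjusted p = 0.000387), 8.70-fold with LPS after IL-4 (-2.79, SE 0.40, adjusted p = 0.000109) and 5.94-fold with IL-4 before LPS (-2.13, SE 0.40, adjusted p = 0.0025). The span from the highest to the lowest group mean was 64.4-fold, the widest of the 10 genes, and the rank of Slc40a1 among the 23847 rows went from 492 in control to 8151 with IL-4+LPS. With replicates 2 and 3 only, the values were -3.84, -2.81, -3.17 and -2.14 in the same order.

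**Figure D2:**
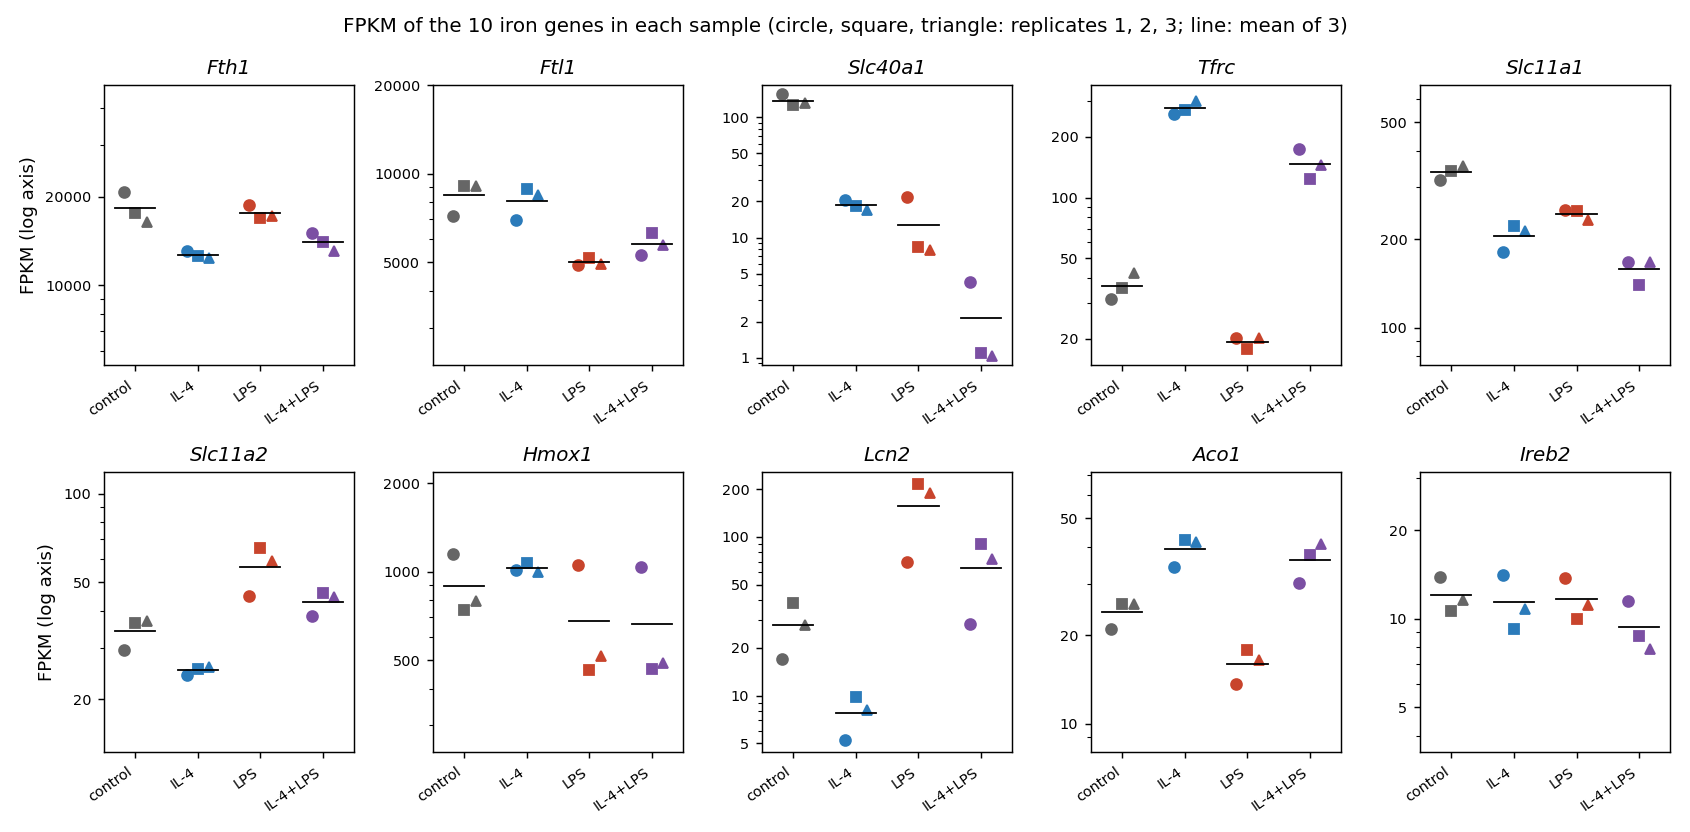
FPKM (log axis) of each iron gene in every sample by group, with circles, squares and triangles for replicates 1, 2 and 3 and a line at the group mean. Tfrc separates the 4 groups without overlap, Slc40a1 drops from 127 to 155 FPKM in control to 1.03 to 4.28 FPKM with IL-4+LPS, and replicate 1 stands apart for Slc40a1, Hmox1 and Lcn2 in the LPS-exposed groups.

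The transferrin receptor went the other way with IL-4. Tfrc read 31.4, 35.6 and 42.0 FPKM in control, 260, 271 and 301 FPKM with IL-4, 20.1, 17.7 and 20.0 FPKM with LPS, and 173, 123 and 146 FPKM with IL-4+LPS. The groups did not overlap, and the order was IL-4, IL-4+LPS, control, LPS. IL-4 raised it 7.63-fold in resting cells (2.90, SE 0.13, adjusted p = 1.9e-07) and 7.65-fold in LPS-exposed cells (2.86, SE 0.13, adjusted p = 1.91e-07). LPS lowered it 1.89-fold without IL-4 (-0.87, SE 0.13, adjusted p = 0.000143) and 1.88-fold after IL-4 (-0.92, SE 0.13, adjusted p = 0.000117). These 4 calls held after quantile normalization and after median scaling, where the LPS values were -0.52 and -0.56 at their smallest. Of the 4 genes with an IRE shown above, Tfrc, which holds it after the coding sequence, was higher with IL-4, Slc40a1 and Fth1, which hold it before, were lower, and Ftl1 did not pass. With LPS against control, Tfrc, Slc40a1 and Ftl1 were all lower and Fth1 did not pass. Whether the IRE had a part in these changes was not tested, and translation was not measured.

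Slc11a2 (DMT1), which lets iron out of the endosome, was raised by LPS. It read 29.4, 36.3 and 36.9 FPKM in control, 24.1, 25.5 and 25.7 FPKM with IL-4, 45.0, 65.2 and 59.0 FPKM with LPS, and 38.5, 45.9 and 44.7 FPKM with IL-4+LPS. All LPS-exposed samples lay above all samples without LPS. The rise was 1.65-fold without IL-4 (0.70, SE 0.14, adjusted p = 0.000782) and 1.71-fold after IL-4 (0.75, SE 0.14, adjusted p = 0.000515). IL-4 lowered it 1.36-fold (-0.42, SE 0.14, adjusted p = 0.0309), a call that was lost in a per-gene Tukey comparison (adjusted p = 0.0734), without the expression filter (adjusted p = 0.0774) and on leaving out control replicate 2 (-0.38) or 3 (-0.37) or IL-4 replicate 1 (-0.40), 2 (-0.44) or 3 (-0.44). For IL-4+LPS against LPS the value was -0.37 (adjusted p = 0.0618), and it passed without control replicate 1 (-0.37, adjusted p = 0.0479), without LPS replicate 1 (-0.52, adjusted p = 0.00746) and with replicates 2 and 3 only (-0.45, adjusted p = 0.000849).

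Slc11a1 (NRAMP1), the metal pump of the phagosome, was lowered by both stimuli. C57BL/6 mice carry a loss-of-function allele of it, so its messenger level is not a measure of transport in these cells. It read 317, 341 and 355 FPKM in control, 251, 250 and 232 FPKM with LPS, 181, 221 and 213 FPKM with IL-4, and 167, 140 and 167 FPKM with IL-4+LPS, and no group overlapped another. IL-4 lowered it 1.65-fold (-0.72, SE 0.10, adjusted p = 0.000234) and, in LPS-exposed cells, 1.55-fold (-0.63, SE 0.10, adjusted p = 0.00062). LPS lowered it 1.38-fold without IL-4 (-0.46, SE 0.10, adjusted p = 0.00112) and 1.30-fold after IL-4 (-0.37, SE 0.10, adjusted p = 0.00472). Both LPS values were near the median of all rows, and after median scaling they were -0.10 (adjusted p = 0.337) and -0.01 (adjusted p = 0.924).

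Of the 2 iron sensors, Aco1 (IRP1) moved and Ireb2 (IRP2) did not pass in any comparison over the 12 samples unless the replicate number was a block in the fit. Aco1 read 21.1, 25.7 and 25.6 FPKM in control, 34.3, 42.2 and 41.4 FPKM with IL-4, 13.7, 17.9 and 16.5 FPKM with LPS, and 30.0, 37.6 and 40.9 FPKM with IL-4+LPS. Its order was that of Tfrc, with the IL-4 and IL-4+LPS samples overlapping. IL-4 raised it 1.63-fold (0.68, SE 0.14, adjusted p = 0.00348) and, in LPS-exposed cells, 2.25-fold (1.12, SE 0.14, adjusted p = 0.000169). LPS lowered it (-0.56, SE 0.14, adjusted p = 0.00384), a value that was -0.21 after median scaling (adjusted p = 0.223), and after IL-4 it was -0.12 (95% interval -0.43 to 0.19). Ireb2 had group means between 9.37 and 12.0 FPKM, all neighbouring groups overlapped, and replicate 1 was its highest sample in every group. Its largest log2 fold change was -0.29 (IL-4+LPS against LPS, adjusted p = 0.254), and with replicates 2 and 3 only this was -0.31 (adjusted p = 0.039). With the replicate block, Ireb2 passed in that comparison (-0.29, adjusted p = 0.00988) and for LPS after IL-4 (-0.25, adjusted p = 0.0097).

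Hmox1, which opens the heme ring, had calls that changed with replicate 1. It read 1145, 743 and 797 FPKM in control, 1010, 1066 and 999 FPKM with IL-4, 1054, 464 and 517 FPKM with LPS, and 1035, 467 and 488 FPKM with IL-4+LPS. Replicate 1 lay between 1010 and 1145 FPKM in all groups, whereas replicates 2 and 3 were lower with LPS than without. Over all samples no comparison passed: the value was -0.47 for LPS (95% interval -1.25 to 0.30, adjusted p = 0.241) and -0.73 for LPS after IL-4 (adjusted p = 0.0828). After quantile normalization the second was -0.97 and passed (adjusted p = 0.0479). With the replicate number as a block in the fit, it passed as well (-0.73, adjusted p = 0.0137). With replicates 2 and 3 only, the values were -0.65 (adjusted p = 0.000126) and -1.11 (adjusted p = 1.15e-05), and IL-4 against control was 0.42 (adjusted p = 0.00277). Leaving out single libraries had the same effect: LPS against control was -0.84 without LPS replicate 1 (adjusted p = 0.0342), and LPS after IL-4 was -1.10 without IL-4+LPS replicate 1 (adjusted p = 0.00964) and -0.73 without LPS replicate 1 (adjusted p = 0.0382).

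Lcn2, or lipocalin 2, binds bacterial siderophores and so keeps iron from bacteria. It read 17.0, 38.3 and 28.0 FPKM in control, 5.29, 9.86 and 8.08 FPKM with IL-4, 69.3, 215 and 189 FPKM with LPS, and 28.2, 90.8 and 73.0 FPKM with IL-4+LPS. LPS samples lay above control samples and IL-4 samples below all others, while IL-4+LPS overlapped both control and LPS. LPS raised it 5.68-fold (2.38, SE 0.51, adjusted p = 0.0016) and 8.26-fold after IL-4 (2.77, SE 0.51, adjusted p = 0.000628). IL-4 lowered it 3.59-fold (-1.68, SE 0.51, adjusted p = 0.0261), and this call was lost in a per-gene Tukey comparison (adjusted p = 0.078), without the expression filter (adjusted p = 0.0812) and without control replicate 2 (-1.42), control replicate 3 (-1.64), IL-4 replicate 1 (-1.46) or IL-4 replicate 3 (-1.73). For IL-4+LPS against LPS the value was -1.29 (adjusted p = 0.0838), and it was -1.80 without LPS replicate 1 (adjusted p = 0.0202) and -1.30 with replicates 2 and 3 only (adjusted p = 0.00152).

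Lcn2 is also a product of neutrophils, and the markers of these cells moved in part with it. Of the 9 markers of neutrophils and their granules listed, 8 were in the tables and 7 reached 1 FPKM, and Cxcr2, a receptor of mature neutrophils, stayed below 1 FPKM. Their summed level was 375 to 969 FPKM in control, 236 to 449 FPKM with IL-4, 568 to 1167 FPKM with LPS and 469 to 942 FPKM with IL-4+LPS, and replicate 1 had the lowest sum in every group, as it had the lowest Lcn2. Relative to that sum, Lcn2 was 3.95 to 4.54% in control, 2.20 to 2.65% with IL-4, 12.2 to 19.9% with LPS and 6.00 to 11.1% with IL-4+LPS. In every group most of the marker sum was S100a8 and S100a9. The markers did not move as one from control to LPS. The mean of S100a8 went from 258 to 340 FPKM and that of S100a9 from 299 to 409 FPKM. That of Camp went from 15.4 to 28.0 FPKM, and Ltf was at 16.4 and 16.8 FPKM. Elane (5.53 and 3.63 FPKM) and Mpo (5.46 and 3.26 FPKM), of the primary granules, had lower means with LPS. The sums of control and LPS samples overlapped, whereas their Lcn2 levels did not. The part of these cells in the level of Lcn2 was not tested.

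**Figure D3:**
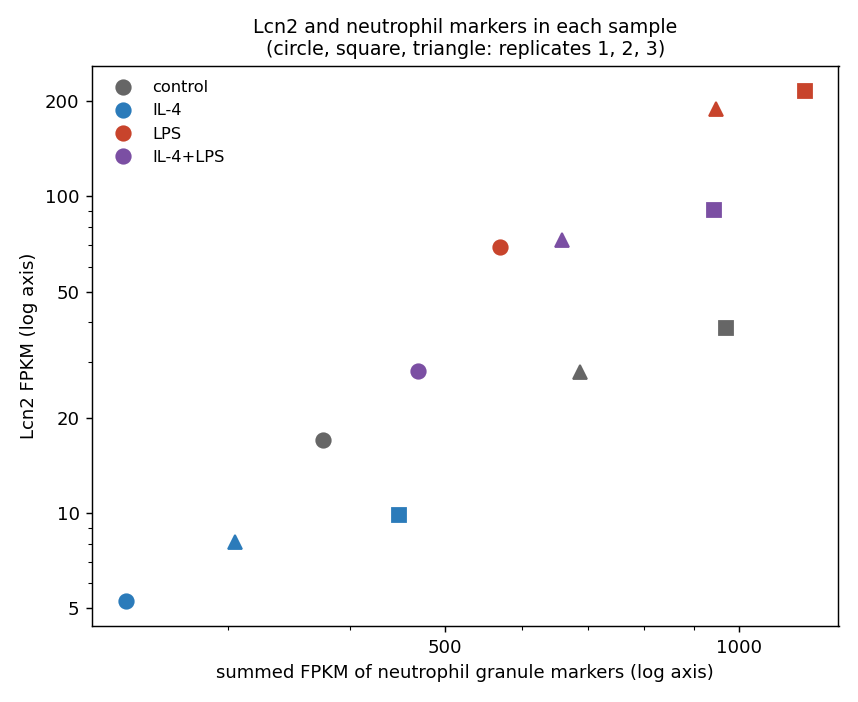
Lcn2 (y axis, FPKM, log axis) against the summed FPKM of the markers of neutrophils and their granules (x axis, log axis) in the 12 samples. Circles, squares and triangles stand for replicates 1, 2 and 3. Most of the sum is S100a8 and S100a9. Replicate 1 lies at the lower left of its group in all 4 groups, and at similar sums LPS-exposed samples lie above control samples.

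It was then asked whether earlier IL-4 changes the LPS response of the iron genes. The response after IL-4 minus the response without it passed in limma for 0 of the 10 genes, against 9.2% of all rows (4.58% higher, 4.63% lower). At an unadjusted p under 0.05 there was 1 gene, Aco1 (0.44, SE 0.20, unadjusted p = 0.0492, adjusted p = 0.205). Of all 11191 rows, 2703 were under that unadjusted threshold. For Tfrc the difference was -0.04 (95% interval -0.46 to 0.38), for Slc11a2 it was 0.05 (-0.37 to 0.48) and for Slc11a1 it was 0.09 (-0.21 to 0.39). The intervals of Slc40a1 (-0.57 to 1.95), Hmox1 (-1.36 to 0.84) and Lcn2 (-1.22 to 2.01) were wide. With replicates 2 and 3 only, 4 of the 10 passed, where 1481 of the 11191 rows were higher and 1386 lower. Slc40a1 (0.67, adjusted p = 0.00267), Aco1 (0.46, adjusted p = 0.00992) and Ftl1 (0.32, adjusted p = 0.0422) were higher, and Hmox1 was lower (-0.46, adjusted p = 0.0171). The difference of Slc40a1 depended on the constant added to FPKM before the log. Over all samples it was 0.69 with 1 and 0.23 with 0.1 (limma, adjusted p = 0.906). Its IL-4+LPS replicates 2 and 3 read only 1.10 and 1.03 FPKM. In IL-4+LPS against LPS, Tfrc and Aco1 were higher and Slc40a1, Slc11a1 and Fth1 lower, in a comparison where 30.9% of all rows passed, 15% higher and 15.8% lower. In IL-4+LPS against IL-4, where 72.9% passed (15% higher, 57.9% lower), Lcn2 and Slc11a2 were higher and Slc40a1, Tfrc, Ftl1 and Slc11a1 lower.

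**Figure D4:**
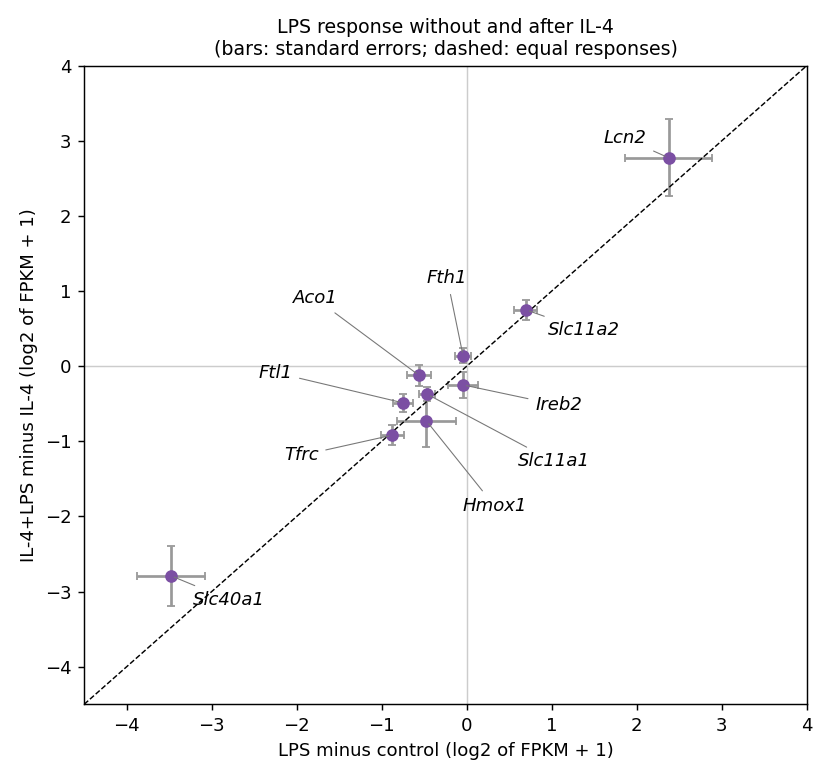
LPS response of each iron gene without IL-4 (x axis) and after IL-4 (y axis), as log2 differences of FPKM + 1 with standard errors, from separate pairs of groups. The dashed line marks equal responses. Tfrc, at -0.87 and -0.92, and Slc11a2, at 0.70 and 0.75, lie closest to it.

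The rest of the iron and heme pathway was described with a list of 65 genes in 8 roles. All 65 were in the tables and 49 were tested. With LPS, 11 were higher and 31 lower, or 22.4% and 63.3%, against 16.9% and 57.7% of all rows, with a median of -0.56. With IL-4, 9 were higher and 15 lower, or 18.4% and 30.6%, against 16% and 21% of all rows. The higher ones were 5 without IL-4 replicate 2 (1390 of 11191 rows) or IL-4 replicate 3 (1295 rows). They were 14 with replicates 2 and 3 only (2406 rows, against 1795 with every sample). After IL-4, LPS raised 9 and lowered 33, or 18.4% and 67.3%, against 15% and 57.9% of all rows. The lower ones were 20 after median scaling, where the lower rows of all went from 6474 to 4057. In IL-4+LPS against LPS, 13 were higher and 14 lower, or 26.5% and 28.6%, against 15% and 15.8% of all rows.

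Among the genes of uptake and reduction, 2 of 7 tested were higher and 4 (57.1%) lower with LPS, against 57.7% lower of all rows. Slc39a14, a zinc and iron importer, read 2.89 to 4.27 FPKM in control, 71.8 to 108 FPKM with LPS and 22.0 to 48.5 FPKM with IL-4+LPS, with log2 fold changes of 4.34 for LPS (adjusted p = 2.65e-07) and 2.85 for LPS after IL-4 (adjusted p = 6.36e-06). The ferrireductase Steap4 rose by 2.12 with LPS (adjusted p = 0.00462). It read 0.631, 7.22 and 5.54 FPKM in LPS replicates 1 to 3 and at most 0.0283 FPKM in control, and the value was 2.85 with replicates 2 and 3 only. Steap3, the ferrireductase of the endosome, was higher with IL-4 (0.69, adjusted p = 0.0111) and fell by 1.72 with LPS after IL-4. In IL-4+LPS against LPS, Slc39a14 was lower (-1.33, adjusted p = 0.00451) and Steap3 higher (0.75, adjusted p = 0.00833).

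Ceruloplasmin (Cp), the ferroxidase that works beside ferroportin, was the 1 gene of 6 in the export and hepcidin group that was tested. It read 1.72 to 2.75 FPKM in control, 0.211 to 0.600 FPKM with IL-4, 52.4 to 63.3 FPKM with LPS and 11.7 to 21.6 FPKM with IL-4+LPS. Its log2 fold changes were 4.23 with LPS (adjusted p = 3.46e-08), -1.19 with IL-4 (adjusted p = 0.00107), 3.65 with LPS after IL-4 (adjusted p = 1.08e-07) and -1.77 for IL-4+LPS against LPS (adjusted p = 8.66e-05). It thus rose with LPS where Slc40a1 fell. In the group of ferritin turnover and iron sensing, 2 of 4 were higher (50%, against 16.9% of all rows) and 1 lower with LPS: Fbxl5, which targets IRP2 for degradation, rose by 0.85 (adjusted p = 1.72e-05), and Ncoa4, which brings ferritin to the lysosome, fell by 1.48 (adjusted p = 9.45e-05).

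For heme, LPS lowered 9 of 10 genes of uptake, breakdown and transport and 10 of 13 genes of heme synthesis and mitochondrial iron import, or 90% and 76.9%, where 57.7% of all rows were lower. It raised 1 and 2 of them, or 10% and 15.4%, where 16.9% of all rows were higher. The heme exporter Flvcr1 went from 21.7 to 28.6 FPKM in control to 4.55 to 4.87 FPKM with LPS (-2.15, adjusted p = 7.62e-08), and the synthesis enzyme Cpox (-1.39, adjusted p = 2.36e-06) fell as well. Haptoglobin (Hp), which binds free hemoglobin, was the gene of this group that rose (2.53, adjusted p = 0.000744, and 2.83 with replicates 2 and 3 only). It read 6.71, 29.4 and 24.1 FPKM in LPS replicates 1 to 3, and replicate 1 was its lowest sample in control, LPS and IL-4+LPS, as it was for the summed neutrophil markers, whose part in the level of Hp was not tested. Alas1, the first and rate-limiting enzyme of heme synthesis, read 88.6 to 111 FPKM in control, 182 to 202 FPKM with IL-4, 174 to 192 FPKM with LPS and 548 to 593 FPKM with IL-4+LPS. It was higher with IL-4 (0.98, adjusted p = 1.44e-05), with LPS after IL-4 (1.56, adjusted p = 1.28e-07) and in IL-4+LPS against LPS (1.64, adjusted p = 4.61e-07). All LPS samples of Alas1 also lay above all its control samples. IL-4 lowered the mitochondrial iron importer Slc25a37 (-1.03, adjusted p = 0.000174), the constitutive heme oxygenase Hmox2 (-0.71, adjusted p = 0.000173) and the heme and folate carrier Slc46a1 (-0.68, adjusted p = 0.00569).

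Of the 9 genes of iron-sulfur cluster assembly, 6 fell with LPS and the other 3 did not pass, and 3 rose and 1 fell with IL-4. These are 66.7% lower with LPS, against 57.7% of all rows, and 33.3% higher and 11.1% lower with IL-4, against 16% and 21%. The co-chaperone Hscb fell by 2.39 with LPS (adjusted p = 6.49e-06) and by 1.01 with IL-4 (adjusted p = 0.00799), Isca1 fell by 1.24 with LPS (adjusted p = 2.34e-07), and the chaperone Hspa9 rose by 0.69 with IL-4 (adjusted p = 9.17e-06). Among 5 transcription factors, LPS raised 3 (60%, against 16.9% of all rows) and lowered 1. Spic, which directs the iron-recycling macrophages of the spleen, read 9.44 to 19.6 FPKM in control, 1.12 to 2.37 FPKM with IL-4, 28.7 to 40.5 FPKM with LPS and 2.18 to 7.35 FPKM with IL-4+LPS, with values of 1.33 for LPS (adjusted p = 0.0061) and -2.31 for IL-4 (adjusted p = 0.000636). Hif1a rose by 1.59 with LPS (adjusted p = 2.18e-06), and Bach1, the heme-sensitive repressor of Hmox1, fell by 0.44 with IL-4 (adjusted p = 0.0118).

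**Figure D5:**
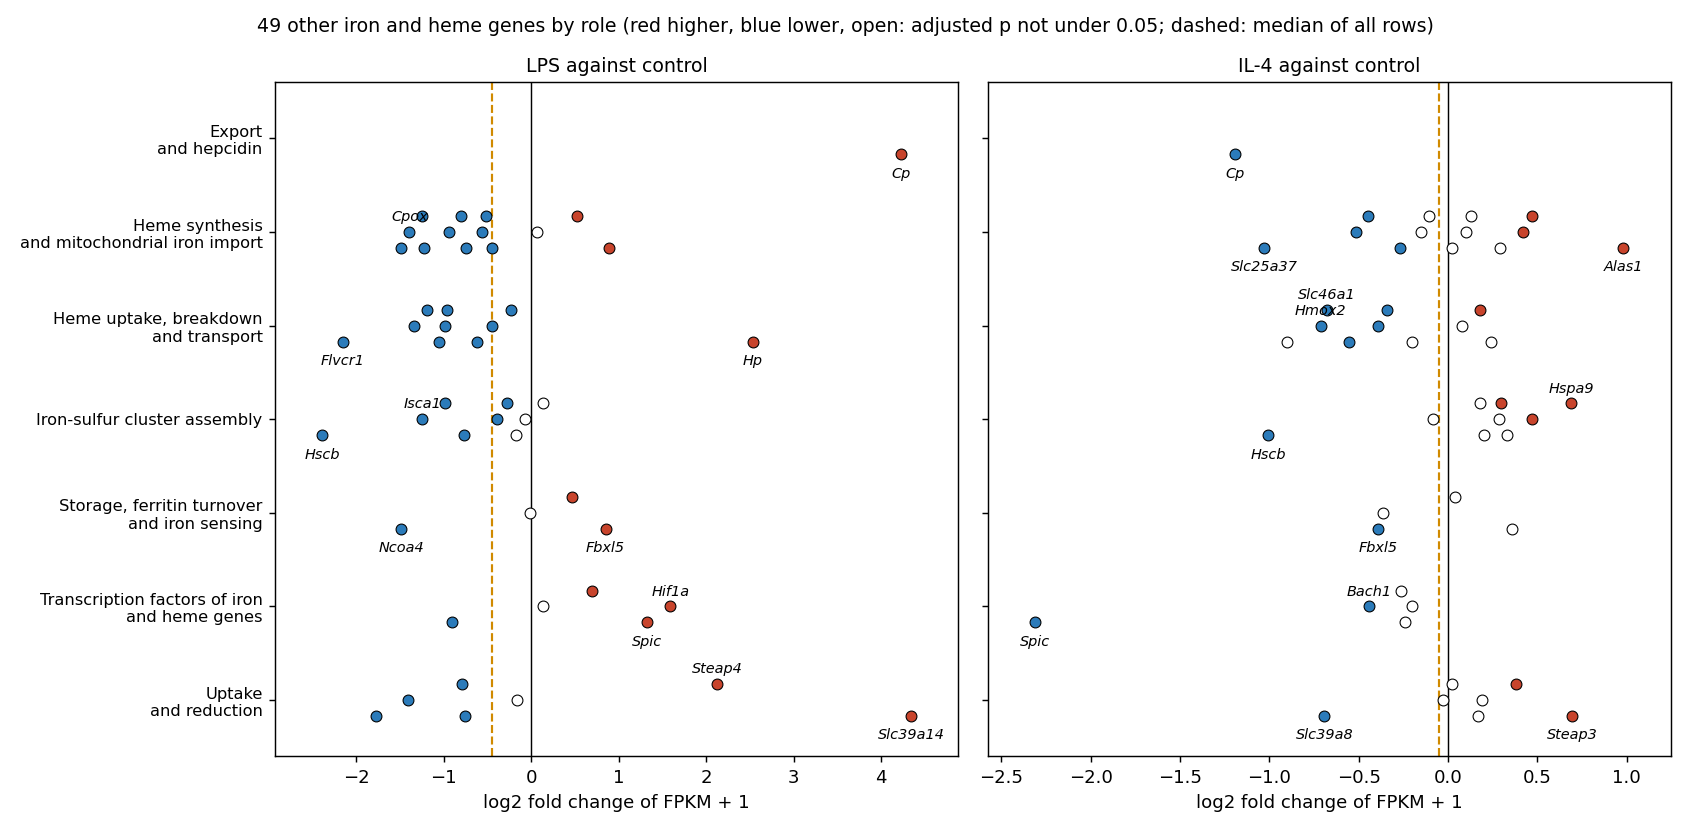
Log2 fold change of FPKM + 1 (x axis) of the 49 other iron and heme genes tested, by role (y axis), for LPS and for IL-4 against control. Red points were higher and blue points lower at an adjusted p under 0.05, open points did not pass, and the dashed line is the median of all rows. With LPS, Slc39a14 and Cp lie above 4, and most genes of heme synthesis and heme transport lie left of the line in that panel.

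The genes most like an iron gene across the 12 samples were named by the root mean square difference of their log2 values after centring, which is a description without a test. Tfrc was nearest to Mvd (0.164), Sqle (0.303) and Prps1 (0.306), of which Mvd and Sqle are enzymes of cholesterol synthesis. Mvd had means of 5.09 FPKM in control, 36.5 FPKM with IL-4, 2.21 FPKM with LPS and 20.3 FPKM with IL-4+LPS. Aco1 was nearest to Capg (0.0995), Bcap31 (0.102) and Galm (0.111). Lcn2 was nearest to Sh3bgrl2 (0.375), Fgr (0.418) and Hp (0.432), and Slc40a1 to S1pr1 (0.698) and Lyl1 (0.741).

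Promoter windows from 250 bases before to 50 bases after the start site, taken from RefSeq (GRCm38.p6), matched 7 of the 10 genes, Slc40a1, Slc11a2 and Hmox1 being without one. They were searched on both strands for 3 motifs, which serve as a description of letters and not of binding. The antioxidant response element core TGANNNNGC, found in 41.3% of 32817 promoters, occurred in Slc11a1 and Aco1. The kappa B motif GGGANNNNCC (20.7%) occurred in Fth1 and Ireb2. The STAT6 palindrome TTCNNNNGAA (6.94%) occurred in Lcn2 alone among the 7, as ttcaacagaa at -156 from the start site on chromosome 2.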

How the data were processed

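Expression was measured by poly-A RNA-seq in 12 BMDM samples, 3 per group. The authors mapped paired reads to mm10 and deposited FPKM values, 1 table per sample. The submitters' processing notes name TopHat2 2.0.7 and Cufflinks 2.0.2. The LPS dose is that of the labels, and the study's methods give it in nM. The annotation is not given in the sources used here. Each FPKM value is scaled within its sample, so a shift in RNA composition moves every gene, and no count-based interval could be formed. The labels do not say that samples came from separate animals, whereas the study speaks of 3 animals from 2 experiments. Without such separation, p-values measure only the spread between these samples, which may be technical.

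The 23847 rows were joined, and 11191 rows with at least 1 FPKM in at least 1 sample were tested. Group means of log2(FPKM + 1) were modelled over the 12 samples in limma 3.58.1 (R 4.3.3) with an intensity trend. The scale understates changes of low genes. Tests were two-sided, with Benjamini-Hochberg adjustment per comparison and a threshold of 0.05. The fit was checked on simulated data. The members and gene lists were chosen with earlier results of these data known. The text names all members and, of the other iron and heme genes, those among the 2 largest called changes per role and comparison. Flvcr1 was found under an older symbol. Some genes that this rule or the likeness measure names are not reported here. The alternatives were another pseudocount (0.1), other filters, 2 scalings, no trend, fewer groups, the replicate block, replicates 2 and 3 only, Tukey comparisons, a 2-fold minimum and each sample left out. Figures were drawn with matplotlib 3.10.9.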

Additional observations from a re-analysis of the deposited data

Results flagged for a closer look

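Of the 49 other iron and heme genes tested, 3 had a higher and 4 a lower LPS response after IL-4, or 6.12% and 8.16%, against 4.58% and 4.63% of all rows. The higher ones were 6 without LPS replicate 1 (624 of all rows). The lower ones were 2 without IL-4 replicate 2 (373 of all rows), LPS replicate 2 (354 rows) or LPS replicate 3 (334 rows). In 6 of the other iron and heme genes named here, the response to LPS differed after IL-4 by the test of the difference itself (limma, adjusted over all 11191 rows). The difference was positive for Alas1 (0.66, SE 0.12, adjusted p = 0.00772) and for the biliverdin reductase Blvra (0.59, SE 0.08, adjusted p = 0.00139). Blvra read 131 to 138 FPKM in control, 147 to 157 FPKM with IL-4, 64.6 to 69.6 FPKM with LPS and 113 to 119 FPKM with IL-4+LPS. The difference was negative for Slc39a14 (-1.50, SE 0.39, adjusted p = 0.0397), Hif1a (-1.28, SE 0.19, adjusted p = 0.00262), Fbxl5 (-0.71, SE 0.14, adjusted p = 0.00951) and the mitochondrial iron importer Slc25a28 (-0.59, SE 0.13, adjusted p = 0.019). Hif1a read 47.9 to 66.7 FPKM with LPS and 17.9 to 21.5 FPKM with IL-4+LPS, and Fbxl5 read 26.8 to 32.4 FPKM and 12.5 to 14.2 FPKM. The call of Slc39a14 was lost without the expression filter (adjusted p = 0.108) and on leaving out any of the control or IL-4 samples, LPS replicate 2 or LPS replicate 3, where its value ran from -1.36 to -1.58. The call of Slc25a28 was lost without IL-4 replicate 2 (-0.55), LPS replicate 2 (-0.57) or LPS replicate 3 (-0.55). Groups of 3 samples are too small for a test of single outlying samples.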

How the results depend on the processing

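Of 480 values of the iron genes under settings other than leaving out 1 sample, 439 kept their direction and their side of the threshold, 17 no longer passed, 22 newly passed and 2 reversed. Of 600 with 1 sample left out, 580 kept both, 14 no longer passed and 6 newly passed. The 2 reversals were Fth1 with LPS, at 0.33 after median scaling, and Ftl1 with LPS after IL-4, at 0.0078 after quantile normalization. Scaling moved several counts. After median scaling LPS lowered 3 iron genes (2 after IL-4) and raised 3 iron genes (3 after IL-4). Among the other genes LPS then lowered 25 (20 after IL-4) and raised 16 (13 after IL-4). The lower rows among all 11191 moved as well, from 6462 to 4454 with LPS and from 6474 to 4057 with LPS after IL-4. The higher rows went from 1887 to 2966 with LPS and from 1682 to 2629 with LPS after IL-4. For IL-4 against control, lower iron genes were 2 without the expression filter (2266 of 23847 rows) and 3 by Tukey comparisons (2027 of 11191 rows). The causes were not tested. With replicates 2 and 3 only, IL-4 raised 14 other genes, 6 iron genes were lower in IL-4+LPS against LPS, and the interaction gave 3 higher and 1 lower iron gene and 8 higher and 7 lower other genes. Of all 11191 rows, 2406 were higher with IL-4 and 2901 lower in IL-4+LPS against LPS in that setting. The interaction gave 1481 higher and 1386 lower rows there. A 2-fold minimum, which can only lower counts, left 1 higher and 1 lower iron gene with LPS and also with LPS after IL-4, 1 and 2 with IL-4, and 1 lower in IL-4+LPS against LPS. For the other genes it left 6 higher and 13 lower with LPS, 0 and 4 with IL-4, 4 and 8 with LPS after IL-4, 1 and 7 for IL-4+LPS against LPS, and 0 and 2 for the interaction. Of all 11191 rows it left 883 higher and 2121 lower with LPS, 309 and 391 with IL-4, and 842 and 1691 with LPS after IL-4. It left 303 and 332 rows for IL-4+LPS against LPS, and 146 and 155 for the interaction.

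With 1 sample left out, IL-4 lowered 3 to 5 iron genes and raised 5 to 11 other genes. The interaction gave 2 to 6 higher and 2 to 5 lower other genes. Of all 11191 rows in these fits, 1749 to 2583 were lower and 1295 to 1925 higher with IL-4. For the interaction, 311 to 624 rows were higher and 334 to 652 lower. Neither the labels nor the study's methods say that the replicate numbers pair the samples, and the fit reported above does not model them. Deviations from the group means of samples with the same number had a mean r of 0.124 over 18 pairs, from 0.0024 to 0.386. Of the 12 samples, 9 correlated best with their own number. With the replicate block, 6 iron genes were lower in IL-4+LPS against LPS, and the interaction gave 1 higher iron gene and 8 higher other genes. Over all 11191 rows the block raised these counts too, from 1771 to 2667 lower and from 512 to 1145 higher. With it Hmox1 passed for LPS after IL-4 (-0.73, adjusted p = 0.0137), and Ireb2 passed there (-0.25, adjusted p = 0.0097) and in IL-4+LPS against LPS (-0.29, adjusted p = 0.00988). The other calls it added were Fth1 for LPS after IL-4 (0.14), Ftl1 (0.20), Lcn2 (-1.29) and Slc11a2 (-0.37) in IL-4+LPS against LPS, and Aco1 for the interaction (0.44), and it ended no call of an iron gene. Depth in fragments was unknown, so precision at low values such as Slc40a1 with IL-4+LPS rests on the spread of 3 samples.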
